A study of Mus musculus with 1699 samples.

Results

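Aldh1a1-high, Slc6a3-high cells of the perinatal mouse ventral midbrain were followed here one by one. They were chosen by 2 measured levels, an RPKM (reads of a gene scaled to its length in kilobases and to the depth of the cell) over 150 for Aldh1a1 and over 150 for Slc6a3, among cells of embryonic day (E) 18.5, postnatal day (P) 1 and P7 with more than 100000 reads. There were 42, 66 and 16 of them at the 3 stages, together 17.8% of the 695 cells of these stages and genotype that passed the limit on reads, in a series of 1699 cells. They were set against the other cells of the same stages with Slc6a3 over 150, which were 38, 46 and 19 and are called the other Slc6a3-high cells below.

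The study sorted GFP-positive cells from dissected ventral midbrain by flow cytometry and sequenced each cell on its own with Smart-seq2, a method that reads polyadenylated RNA along its length. The Aldh1a1-high cells and their comparison cells came from Pitx3eGFP/wt heterozygotes, in which 1 Pitx3 allele carries the eGFP coding sequence, so all of them have 1 intact copy of Pitx3 and were sorted through the Pitx3 locus. At the end the same limits are applied to heterozygotes of E13.5, E15.5 and P90 and to Pitx3eGFP/eGFP homozygotes of E13.5 and P1, in which both alleles carry eGFP. The labels tie no cell to an animal, and 1 stage therefore stands as 1 sample. No test was made between cells, and the 95% intervals below (exact Clopper-Pearson for a share, Newcombe for a difference between shares) cover counting error only. E18.5 cells were dissociated with another kit than P1 and P7 cells, and spike-in RNA was added at E18.5 and to 1 of the 2 sets of P1 cells, so a change with age cannot be told apart from these steps.

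Dopamine neurons of the midbrain make dopamine from tyrosine through Th and Ddc, load it into vesicles with Slc18a2 and take it back up through Slc6a3, the dopamine transporter (Dat). Aldh1a1 encodes an aldehyde dehydrogenase that oxidises retinaldehyde to retinoic acid and also clears the reactive aldehyde made when dopamine is broken down. In the adult it marks ventral substantia nigra neurons, where it is found with Sox6, as well as part of the ventral tegmental area, where Otx2, the secreted peptide gene Grp and the transcription factor gene Neurod6 are known markers.

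Because Aldh1a1 chose the cells, its close relative Aldh1a7 matters for what an Aldh1a1 read is. Both genes have a coding sequence of 1503 bases, identical at 91.6% of positions, and 12.8% of the 43-base windows of Aldh1a1, the read length used, also occur in Aldh1a7. Below are a stretch of Aldh1a1 that the study used as an in situ probe target (GRCm38 chromosome 19, 20630746 to 20630785, plus strand, coding part of exon 12 of transcript ENSMUST00000225337) and the same coding positions of Aldh1a7, with the 5 bases that differ in capitals. Both were read from the study's probe table and GENCODE M21 transcripts, 5′ to 3′ as in the mRNA.
Aldh1a1: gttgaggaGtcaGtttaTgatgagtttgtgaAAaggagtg
Aldh1a7: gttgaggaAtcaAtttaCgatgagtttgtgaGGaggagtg
Only uniquely mapping reads were counted, so reads from the shared windows of the coding sequence would be missing from both genes. Aldh1a7 itself exceeded an RPKM of 10 in 3.23% of the Aldh1a1-high cells and in none of the other Slc6a3-high cells, where a count of 0 leaves room for up to 3.52% (exact interval).

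The same probe table holds targets for several genes described below, so the study could look for these transcripts in tissue. For 6 of them, 1 target of 40 bases that lies within coding sequence is shown, with the pair of bases where the arms of the probe meet in capitals. The first 4 genes were found in more Aldh1a1-high than other Slc6a3-high cells and the last 2 in fewer, although Otx2, Lpl and Id4 did not pass the limit of size used below.
Nrp1: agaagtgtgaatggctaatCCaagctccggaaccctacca
Nfix: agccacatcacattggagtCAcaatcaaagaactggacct
Otx2: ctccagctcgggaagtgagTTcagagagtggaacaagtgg
Lpl: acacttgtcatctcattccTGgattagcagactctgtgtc
Ntf3: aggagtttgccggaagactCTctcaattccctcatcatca
Id4: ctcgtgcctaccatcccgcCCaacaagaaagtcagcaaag
On GRCm38 these lie at chr8:128363300-128363339 (Nrp1, plus strand, exon 2), chr8:84771813-84771852 (Nfix, minus strand, exon 2), chr14:48659190-48659229 (Otx2, minus strand, exon 6), chr8:68887509-68887548 (Lpl, plus strand, exon 2), chr6:126102394-126102433 (Ntf3, minus strand, exon 2) and chr13:48261729-48261768 (Id4, plus strand, exon 1).

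The limit on Aldh1a1 fell in a sparsely filled part of its range. Among all Slc6a3-high cells, 39.6% had an Aldh1a1 RPKM of 10 or less and 47.6% were over 1000, while 5 cells lay between 10 and 50, 8 between 50 and 150, 8 between 150 and 300 and 8 between 300 and 1000. The 3 cells just inside the limit had 2 more than the limit, 197.3 and 214.4, and the 3 just outside it had 134.4, 126.3 and 118.5. For Slc6a3 in Aldh1a1-high cells the values just inside were 151.5, 155.4 and 165.6 and those just outside 143.1, 115.4 and 114.2. These values made the selection and are given as a description.

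**Figure D1:**
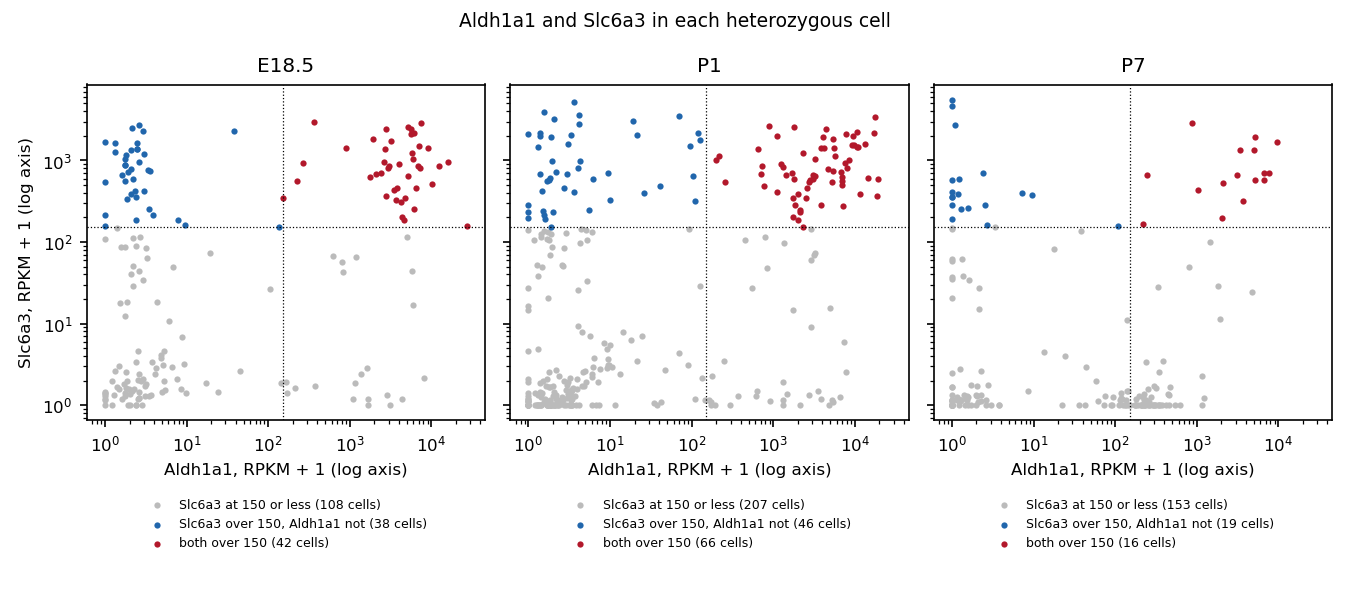
Aldh1a1 (x axis) and Slc6a3 (y axis), RPKM plus 1 on log axes, in each of the 695 heterozygous cells of E18.5, P1 and P7, 1 point a cell, with dotted lines at the limits of 150. Red points are the 42, 66 and 16 cells over both limits, blue points the other Slc6a3-high cells, and most red points lie over 1000 on the Aldh1a1 axis while most blue points lie under 10.

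Aldh1a1 ranged from just over its limit to 27287 RPKM with a median of 4305 at E18.5, from 197.3 to 19411 with a median of 3538 at P1, and from 217.2 to 9696 with a median of 3494 at P7. Slc6a3 in the same cells ranged from 155.4 to 2984 with a median of 855 at E18.5, from 151.5 to 3378 with a median of 737 at P1, and from 165.6 to 2848 with a median of 660 at P7. The ranges of the 3 stages overlapped for both genes. Across the cells over both limits the Spearman correlation of Aldh1a1 with Slc6a3 was 0.187, with Th 0.0729 and with Grp 0.293, values that share the depth of each cell and are given as a description.

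Of the Slc6a3-high cells, 54.6% (47.9 to 61.2) were over the Aldh1a1 limit. By stage this was 42 of 80 cells at E18.5 (52.5%, 41.02 to 63.8), 58.9% at P1 (49.2 to 68.1) and 16 of 35 cells at P7 (45.7%, 28.8 to 63.4). It lay between 45.7% and 59.3% in the 5 sets of cells that the sample titles give. The intervals of the 3 stages overlap. As a share of all sorted cells the group made up 22.3%, 20.7% and 8.51% at E18.5, P1 and P7, the last with an interval of 4.94 to 13.5. The 2 sets of P1 cells were unlike in this, with 32.98% (23.6 to 43.4) in the set P1_1 and 15.6% (11.1 to 20.96) in the set P1, so the value at P1 depends on how they are pooled.

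The label of dopamine neurons held in these cells. At least 6 of 8 dopamine neuron markers (Th, Ddc, Slc18a2, Slc10a4, Nr4a2, Pitx3, En1 and Foxa2) were over an RPKM of 10 in 98.4% of the Aldh1a1-high cells and in 93.2% of the other Slc6a3-high cells. Th was over 10 in all of them, from 32.8 to 5849 RPKM, with medians of 2476, 2448 and 2584 at E18.5, P1 and P7. Slc18a2 was found in 99.2%, Nr4a2 in 98.4%, Slc10a4 in 97.6% and Ddc in 96.8% of them. Of the 2 markers that the selection did not use, Grp was found in most of the cells and Neurod6 in a minority.

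RNA of other cell types was found in few cells of either group, and its part in the differences below was not tested. At least 3 of 12 oligodendrocyte-lineage genes were over an RPKM of 10 in 9 Aldh1a1-high cells (7.26%) and in 8 others (7.77%), and the summed level of the list ran from 0 to 1977 RPKM with a median of 29.6 against 0.416 to 272.4 with a median of 32.4. At least 3 of 6 astrocyte genes were found in 2 and 2 cells, of 6 microglia genes in 2 and 3 cells, of 7 endothelial and pericyte genes in 1 and 0, and of 5 genes of dividing cells in 1 and 0. The summed astrocyte level had medians of 0.739 and 0.640 and highest values of 2340 and 316.6, and the medians of the remaining 3 lists were 0 in both groups, with highest values of 18290 and 8131 for microglia, 1949 and 13.4 for endothelial cells and pericytes and 112.5 and 1523 for dividing cells. Aldh1a1-high cells had 240674 to 4434477 reads (median 1367614) and 4304 to 10356 entries detected (median 7200), and the others 422320 to 3540572 reads (median 1502678) and 2568 to 10224 entries (median 8105). The depth gap was widest at E18.5, with medians of 857460 and 1242078 reads. Fewer entries were detected per Aldh1a1-high cell at each stage, with medians of 7264 and 8241 at E18.5, 7378 and 7892 at P1 and 6505 and 8876 at P7. The part of depth in this was not tested. The median difference in share over all 8862 entries compared was -3.96 percentage points, a shift to which the downward differences below can be compared.

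Grp, which encodes gastrin-releasing peptide, was found in most Aldh1a1-high cells and in few of the others, and the gap was there at each stage. At E18.5 its level in Aldh1a1-high cells ran from 0 to 489 RPKM with a median of 6.55, at P1 from 0 to 1846 with a median of 110, and at P7 from 0 to 487 with a median of 172.9. In the other Slc6a3-high cells the median was 0 at each stage and the highest values were 111.3, 200.6 and 27.5. The groups overlapped at the bottom, where Grp was at 0 in 41 of the Aldh1a1-high cells. Grp (ENSMUSG00000024517) was over 10 in 63.7% of Aldh1a1-high cells (54.6 to 72.2) and 18.5% of the others (11.5 to 27.3), a difference of 45.3 points (33.01 to 55.4) that was 31.8, 49.5 and 59.2 points at E18.5, P1 and P7. It was of the same sign in all 5 title sets, from 27.8 to 59.2 points, and thinning every cell to 100000 reads left it at 44.5 points.

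Neurod6, a basic helix-loop-helix transcription factor of ventral tegmental neurons, had a median of 0 at every stage in both groups, with highest values of 1370, 495 and 352.2 RPKM in Aldh1a1-high cells and 421, 50.3 and 44.8 in the others. It was over 10 in 27.4% (19.8 to 36.2) against 8.74% (4.07 to 15.9), a difference of 18.7 points (8.69 to 28.1). The difference was 5.64 points at E18.5, where 9 of 42 and 6 of 38 cells had it, 25.96 at P1 and 25.99 at P7. In the title set 18_1 the shares of Neurod6 were equal, at 25% each.

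Otx2, Lpl and Cck, further genes of ventral tegmental subtypes, had higher shares in the Aldh1a1-high cells over the 3 stages together, but none of them passed the limit of 20 points at both E18.5 and P1. Otx2, a homeobox factor, was over 10 in 42.7% against 14.6%, a difference of 28.2 points (16.6 to 38.6) that ran from 19.2 at E18.5 through 29.4 at P1 to 43.8 at P7. The title sets of a stage were unlike for Otx2. Its difference was 29.2 points in 18_1 and 5.56 in 18_2 at E18.5, and 8.21 in P1_1 and 48.6 in P1. Lpl, which encodes lipoprotein lipase, was over 10 in 41.1% against 11.7%, with a difference of 29.5 points (18.2 to 39.5). For Lpl the pooled differences of the stages were unlike each other, with 7.02 points at E18.5, where 14 of 42 and 10 of 38 cells had it, 44.8 points at P1 and 32.2 at P7. The E18.5 value pools title sets of opposite sign, with -9.17 points in 18_1 and 27.8 in 18_2, so it does not set that stage apart. Cck, which encodes the peptide cholecystokinin, was over 10 in 83.9% against 64.1%, with differences of 12.03 points at E18.5 and 30.5 at P1. Of the 16 genes of the ventral tegmental list, 11 passed the filter of 20% of cells in either group, 7 of them with a positive and 4 with a negative difference, with a median of 16.2 points, and Grp was the 1 that passed the limit of size upward, as did 0.293% of all entries compared, while 0 passed it downward, as did 0.846% of all entries. Tacr3 (22.6% against 36.9%), Calb2 (77.4% against 93.2%), Slc17a6 (39.5% against 47.6%) and Vip (4.84% against 30.1%) were the ones with negative differences. Grp, Neurod6, Otx2 and Lpl were under the 20% of the filter in the other Slc6a3-high cells, and Vip was under it in the Aldh1a1-high cells. These genes entered through the group where they were more frequent, so the counts and the median of the list depend in part on the filter.

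**Figure D2:**
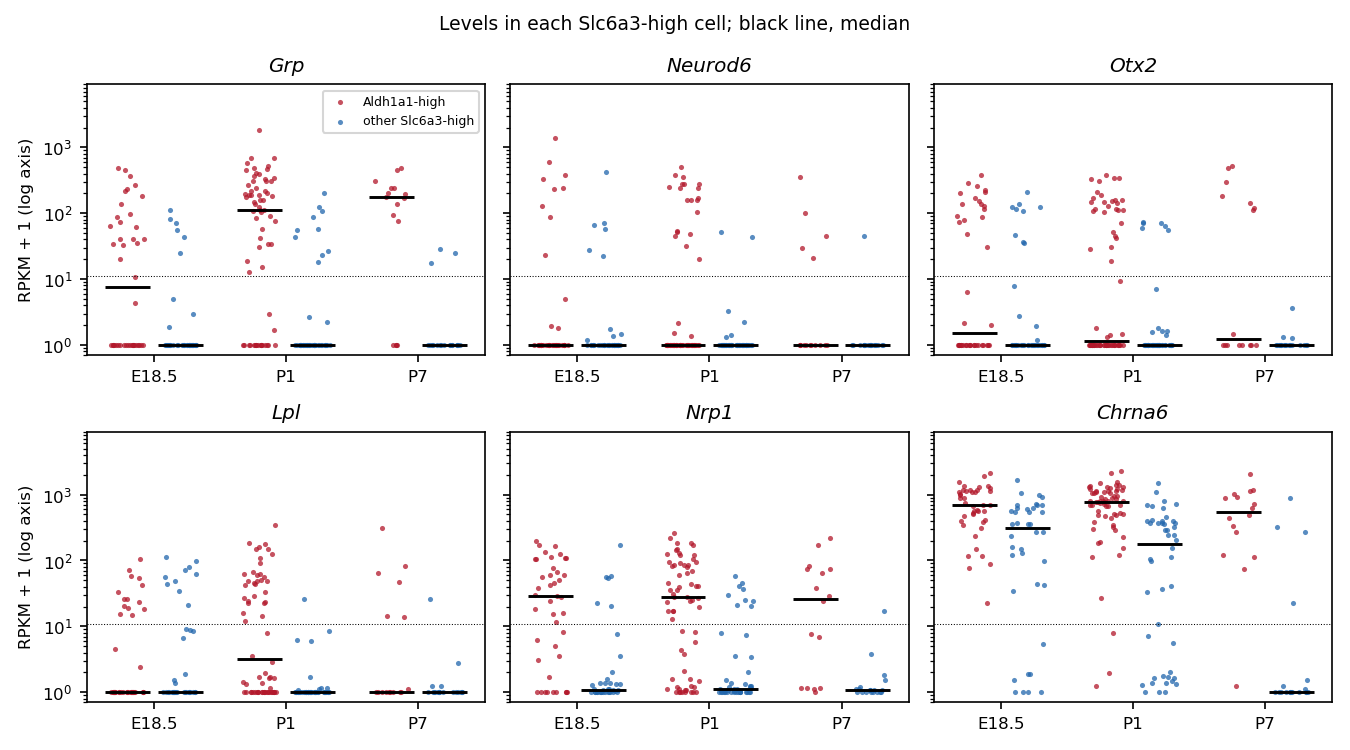
Levels of Grp, Neurod6, Otx2, Lpl, Nrp1 and Chrna6 (y axis, RPKM plus 1, log scale) at E18.5, P1 and P7 (x axis) in each Aldh1a1-high cell (red) and each other Slc6a3-high cell (blue), with a black line at the median and a dotted line at an RPKM of 10. Grp has a median of 172.9 at P7 in red cells and 0 in blue cells, and Neurod6 stays at a median of 0 in both.

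Most genes of the list for the ventral substantia nigra subtype of the adult were detected in few cells of either group, which at the depth of single cells does not show that they were absent. Sox6, a factor of that subtype, was over 10 in 3 Aldh1a1-high cells (2.42%), Anxa1, which encodes annexin A1, in 7 (5.65%) and Ndnf, a secreted neurotrophic factor gene, in 10 (8.06%), against 4.85%, 1.94% and 11.7% of the others. None of these 3 differences had an interval that left out 0. Of the 15 genes of the nigral list 3 passed the filter. Kcnj6, a potassium channel gene, was over 10 in 24.2% against 28.2% (-3.96 points, -15.5 to 7.37), and Lypd1, which encodes a modulator of nicotinic receptors, was lower at E18.5 and P1, 1 of the 3 where 0.846% of all entries were, and 0 were higher (0.293% of all entries). Lypd1 was over 10 in 4.84% of Aldh1a1-high cells against 29.1%, with differences of -34.2, -25.9 and 2.96 points at E18.5, P1 and P7. Gpr83, a peptide receptor gene on the same list, was over 10 in 37.9% against 2.91%, a difference of 34.99 points (25.4 to 43.98) with values of 18.6, 45.5 and 38.5 at the 3 stages.

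Over all entries, few passed a limit of size. An entry was counted when the share of cells over an RPKM of 10 differed by at least 20 points in the same direction at both E18.5 and P1. Of 8862 entries, 26 were higher in Aldh1a1-high cells (0.293%), Aldh1a1 itself being 1 of them, and 75 were lower (0.846%). The excess of lower entries depended on the settings. With detection set at an RPKM over 50 there were 36 higher and 31 lower, and with both limits on the cells at 100 there were 32 and 47. Thinning to 100000 reads gave 33 and 61, of which 22 and 38 were among the 26 and the 75. Some other settings gave more than 75 lower entries, up to 1.88% of those compared when the title set P1 was left out. P7 differences were not used in the count. Leaving out Aldh1a1, whose limit was set at P7 too, 23 of the other 25 were higher at P7, where 29.5% of all entries were, and 13 by at least 20 points, where 3.70% were. Of the 75, 70 were lower at P7 against 69.25% of all entries, and 51 by at least 20 points against 25.4%. At P7 the Aldh1a1-high cells also had the fewest entries detected relative to the others, with medians of 6505 and 8876. The 15 entries of each direction with the largest differences were Nrp1, Grp, Elovl3, Ntm, Sox4, Nfix, Cdh11, E130308A19Rik, Trp53i11, Csf2rb2, Tenm2, Kctd12, Lhfpl2, Arid1a and Chd7 among the higher ones, and Aldoart1, Gucy2c, Slc7a3, Dhrs3, Ptprz1, Begain, Cacna2d3, Nwd2, Rnd3, B630019K06Rik, Ntf3, Spock3, Ap1s2, C230034O21Rik and Spats2l among the lower ones.

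Several calls rested on 1 set of cells. Calls were made again without the Vip-high cells of the comparison group (described below) and without each of the 4 title sets of E18.5 and P1, the latter chosen after seeing the data. Among the 20 higher entries in the gene lists, the ranking or the genes followed below, Aldh1a1 left aside, 8 passed the limit each time, and these were Grp, Nrp1, Elovl3, Ntm, Sox4, E130308A19Rik, Csf2rb2 and Chd7. Among 18 lower ones 10 did, namely Bdnf, Ntf3, Dhrs3, Aldoart1, Gucy2c, Begain, Cacna2d3, Nwd2, Rnd3 and Ap1s2. Without the title set 18_1 the calls of Nfib, Erbb4, Kctd12, Trp53i11 and Chrna4 were lost, and without 18_2 those of Tenm2, Cbln4, Lhfpl2 and B630019K06Rik. Without P1_1 those of Nfix, Trp53i11, Chrna4, Lypd1, Slc7a3, Ptprz1, Spock3 and Spats2l were lost, and without P1 those of Nfib, Chrna6, Cdh11, Arid1a, Amotl1 and C230034O21Rik. Without the Vip-high cells those of Chrna6, Cdh11, Erbb4, Cbln4 and Lhfpl2 were lost.

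**Figure D3:**
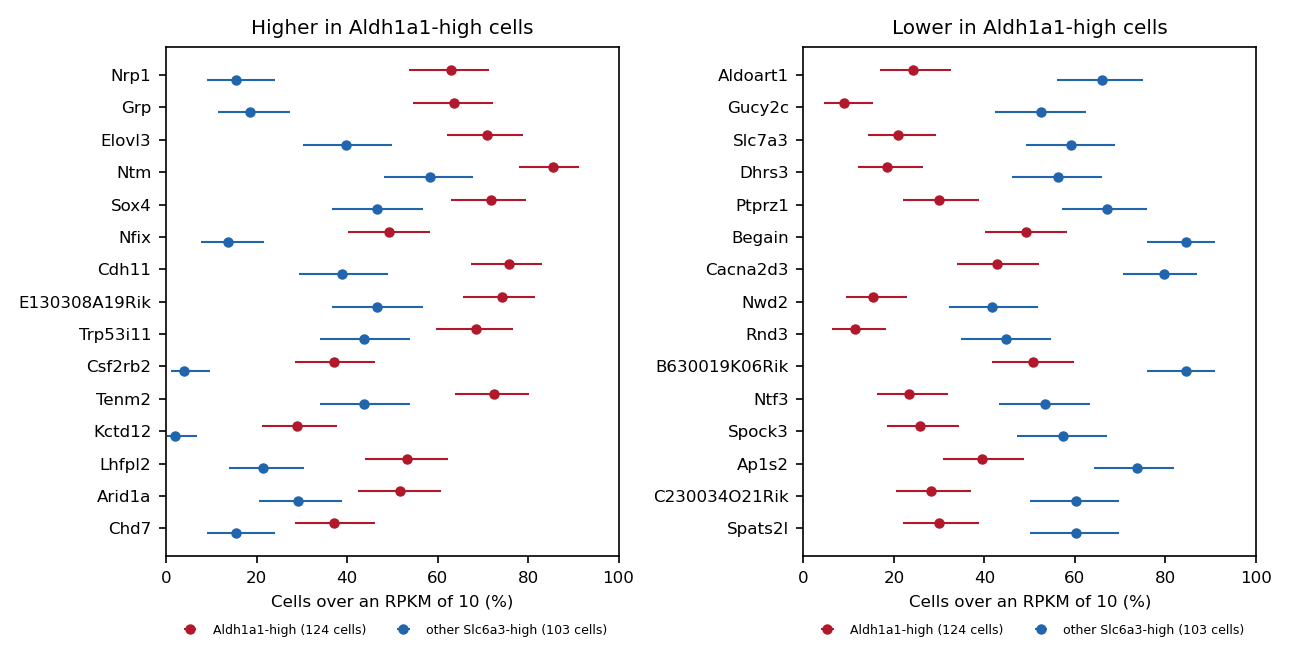
Share of cells over an RPKM of 10 (x axis, percent) for the 15 entries with the largest differences in each direction, in the Aldh1a1-high cells (red) and the other Slc6a3-high cells (blue), with 95% Clopper-Pearson bars. Nrp1 stands at 62.9% against 15.5% and Gucy2c at 8.87% against 52.4%.

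Nrp1, the neuropilin that binds class 3 semaphorins and VEGF, headed the higher entries. Its level in Aldh1a1-high cells ran from 0 to 193.96 RPKM (median 27.4) at E18.5, from 0 to 261.1 (median 26.7) at P1 and from 0 to 216.8 (median 25.3) at P7, and in the others the medians were 0.0883, 0.134 and 0.0709. A few of the others reached the levels of the Aldh1a1-high cells, with highest values of 168.6, 57.9 and 16.3. Nrp1 was over 10 in 62.9% against 15.5%, a difference of 47.4 points (35.4 to 57.2) with little spread over the stages (48.5, 44.1 and 50.99) and of the same sign in all 5 title sets. Nrp1 was the 1 gene of 27 compared in the axon guidance list (36 genes) that passed the limit of size (3.70%, against 0.293% of all entries), and 0 passed it downward (0.846% of all entries). The median over that list was 0.665 points, against -3.96 over all entries. In the same list Epha5, an ephrin receptor, was over 10 in 96.8% against 69.9% (16.04, 28.9 and 40.1 points at E18.5, P1 and P7), the plexins Plxnb1 and Plxnd1 in 35.5% against 17.5% and 20.2% against 1.94%, and the netrin receptor Unc5d in 4.03% against 21.4%.

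Cdh11, a cadherin, was over 10 in 75.8% against 38.8%, with differences of 30.1, 26.6 and 77.96 points at E18.5, P1 and P7. Without the Vip-high comparison cells those of Cdh11 were 24.9, 17.25 and 60.4 points, and at P1 it no longer reached 20 points. Ntm, a GPI-anchored cell adhesion protein of the IgLON family, was found in 85.5% against 58.3%, and Tenm2, a teneurin, in 72.6% against 43.7%. Kctd12, an auxiliary subunit of GABA-B receptors, was at 29.03% against 1.94%, and Csf2rb2, a cytokine receptor gene, was at 37.1% against 3.88%. For Csf2rb2 the difference ran from 25.7 points at E18.5 through 35.05 at P1 to 43.8 at P7.

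Among transcription and chromatin factors, Nfix and Nfib of the nuclear factor I family were higher. Nfix ran from 0 to 167.6 RPKM (median 21.4) at E18.5, from 0 to 158.5 (median 1.94) at P1 and from 0 to 234.6 (median 0.909) at P7 in Aldh1a1-high cells, while the medians of the others were 0. It was over 10 in 49.2% against 13.6% (35.6 points, 23.9 to 45.8), with 51.1, 27.2 and 26.97 points at E18.5, P1 and P7. Nfib was over 10 in 31.5% against 4.85%. Both calls depended on title sets. The P1 difference of Nfix was 44.4 points in the set P1_1 and 11.9 in the set P1, and that of Nfib at E18.5 was 45 points in 18_1 and 11.1 in 18_2. These are 2 of 7 genes compared from the list of 12 branch factors (28.6%, against 0.293% of all entries), while 0 were lower (0.846% of all entries). It is a list that the study chose on these cells, so it is not independent evidence of their direction. Nfix and Nfib also passed the filter on detection through the Aldh1a1-high cells only, and Pou2f2 and Id4 through the other Slc6a3-high cells only. In that list Zfhx3 (32.3% against 60.2%), Pou2f2 (12.9% against 34.95%) and Id4 (8.06% against 37.9%) differed the other way at all 3 stages, title sets pooled, without passing the limit at P1. At E18.5 the differences in 18_1 and 18_2 were -50.8 and 11.1 points for Pou2f2, -65.8 and -16.7 for Zfhx3 and -36.7 and -38.9 for Id4. Without the Vip-high comparison cells the P7 difference of Pou2f2 was 13.9 points, of the opposite sign. Tcf4 was at 69.4% against 44.7%. Sox4, a factor of immature neurons, was higher by 27.6 and 33.4 points at E18.5 and P1 and differed by -3.62 points at P7. Without the Vip-high comparison cells the differences of Sox4 were 24.5, 37.4 and 21.5 points. The chromatin remodellers Arid1a and Chd7 were at 51.6% against 29.1% and 37.1% against 15.5%.

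Of the 20 midbrain dopamine transcription factors, 14 were compared and 0 passed the limit in either direction. Of all entries 0.293% passed it upward and 0.846% downward, so this count is near the background. Pitx3 was over 10 in 97.6% against 81.6% (16.03 points, 8.31 to 24.8), with mean levels of 199.3 and 104.8 RPKM, and eGFP, read from the other Pitx3 allele, in 99.2% against 87.4% with means of 184.4 and 99.7. Lmx1a, which is needed early in the dopamine lineage, was over 10 in 53.2% against 77.7% and Pbx3 in 49.2% against 71.8%. Nhlh2 was the reverse, at 52.4% against 27.2%. Elovl3, among the higher entries at 70.97% against 39.8%, lies next to Pitx3 on chromosome 19, and the annotated ends of the genes overlap (Elovl3 46131897 to 46135694 on the plus strand, Pitx3 46135685 to 46148326 on the minus strand). Smart-seq2 reads carry no strand, so reads in this overlap cannot be told apart. Mean levels of Elovl3 were 33.8 and 19.2 RPKM in the 2 groups, beside the Pitx3 means above.

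None of the 13 genes compared in the list of 14 for dopamine synthesis and handling passed the limit of size, where 0.293% of all entries passed it upward and 0.846% downward, so that a count of 0 is near the background. There 6 differences were positive and 7 negative with a median of -2.50 points, against 2619 positive, 6170 negative and a median of -3.96 over all entries. Th had mean levels of 2560 and 2362 RPKM, Ddc 801 and 615, and Slc18a2 494 and 365.4. Drd2, the dopamine autoreceptor, was over 10 in 54.03% against 73.8% (-19.8 points, -31.3 to -7.19), with -27.1, -7.84 and -34.2 points at E18.5, P1 and P7. The P1 difference of Drd2 changed sign between title sets, with 11.9 points in P1_1 and -25.4 in P1. Without the Vip-high comparison cells its P7 difference was -16.7 points. Maoa, an enzyme of dopamine breakdown, was over 10 in 31.5% against 52.4%. The difference of Maoa was -55 points in 18_1 and 0 in 18_2 at E18.5, and -22.3 in P1_1 and -1.9 in P1. Sncg was at 4.03% against 21.4%.

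Of the 11 familial parkinsonism genes compared (of 14), 0 passed the limit of size, which is again near the 0.293% and 0.846% of all entries, and Uchl1 was over 10 in every cell of both groups.

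Nicotinic receptor subunits were split. Chrna6, a subunit typical of dopamine neurons, ran from 21.4 to 2123 RPKM (median 691) at E18.5, from 0.257 to 2243 (median 784) at P1 and from 0.246 to 2032 (median 550) at P7 in Aldh1a1-high cells, with medians of 314.1, 178.02 and 0 in the others. It was over 10 in 96.8% against 62.1% (34.6 points, 24.6 to 44.5), and the stage differences were 21.1, 30.2 and 72.7 points. Chrna6 was in none of the 22 Vip-high comparison cells, and without them the shares were 96.8% and 79.01% and the stage differences 9.09, 18.5 and 49.3 points, so that it no longer passed the limit. Its neighbour on chromosome 8, Chrnb3, was at 94.4% against 74.8%. Chrna4 passed the limit downward, with -26.3 points at E18.5 and -21.5 at P1, but differed by 25.7 points the other way at P7, where the interval ran from -6.88 to 51.6. Without the Vip-high cells the differences of Chrna4 were -37.9, -35.2 and -4.17 points. Chrnb2, which pairs with either, was at 89.5% and 89.3%. Of the 9 subunits 6 were compared, 1 was higher and 1 lower, where 0.293% and 0.846% of all entries were.

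Of trophic genes, the receptor gene Erbb4 was higher and the neurotrophin genes Bdnf and Ntf3 were lower, out of 12 compared, where 0.293% of all entries were higher and 0.846% lower. Bdnf in Aldh1a1-high cells had a median of 0 at each stage and highest values of 39.4, 85.4 and 33.1 RPKM, against medians of 12.9, 19.7 and 14.96 in the others. It was over 10 in 22.6% against 56.3% (-33.7 points, -44.96 to -21.1). Ntf3 was at 23.4% against 53.4%, with -44.6, -29.3 and -9.54 points at E18.5, P1 and P7. Erbb4, the neuregulin receptor, was at 53.2% against 27.2%, with an E18.5 difference of 32.5 points in the title set 18_1 and 11.1 in 18_2, so that its call rested on the first of these sets. The GDNF co-receptor gene Gfra1 was at 87.9% against 65.05% with mean levels of 321.99 and 137.7 RPKM. Ret, the receptor that works with Gfra1, was at 93.5% and 93.2%.

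Around retinoic acid, the pathway to which Aldh1a1 belongs, 5 of 20 further genes were compared, 0 passed the limit upward and 1 downward, as did 0.293% and 0.846% of all entries. Dhrs3, a reductase that turns retinaldehyde back into retinol, had a median of 0 RPKM in Aldh1a1-high cells at each stage and medians of 38.8, 27.1 and 3.63 in the others. It was over 10 in 18.5% against 56.3%, with differences of -48.9, -33.1 and -28.6 points. Cyp26b1, which degrades retinoic acid, was over 10 in 0.806% against 9.71% and Aldh1a3 in 2.42% against 0% (an exact upper bound of 3.52%). The median difference over the 5 genes was -14.03 points, against -3.96 over all entries.

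Gucy2c, the guanylate cyclase receptor for guanylin peptides, had the second-largest difference downward by the ranking used. Its level in Aldh1a1-high cells had a median of 0 at each stage and highest values of 46.8, 109.6 and 82.7 RPKM, against medians of 24.4, 1.11 and 0 and highest values of 123.4, 424 and 312.99 in the others. Gucy2c was over 10 in 8.87% (4.51 to 15.3) against 52.4% (42.4 to 62.4), with differences of -58.4, -37.2 and -29.6 points. Slc7a3, a transporter of cationic amino acids, was at 20.97% against 59.2%, Ptprz1, a receptor phosphatase, at 29.8% against 66.99%, and Cacna2d3, an auxiliary calcium channel subunit, at 42.7% against 79.6%. Rnd3, a small GTPase, was at 11.3% against 44.7%. Aldoart1, first in that ranking at 24.2% against 66.02%, is a copy of the glycolytic gene Aldoa, with which it shares 10% of its 43-base coding windows, and its values are uncertain for that reason. Its difference of -41.8 points became -24.6 when every cell was thinned to 100000 reads.

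**Figure D4:**
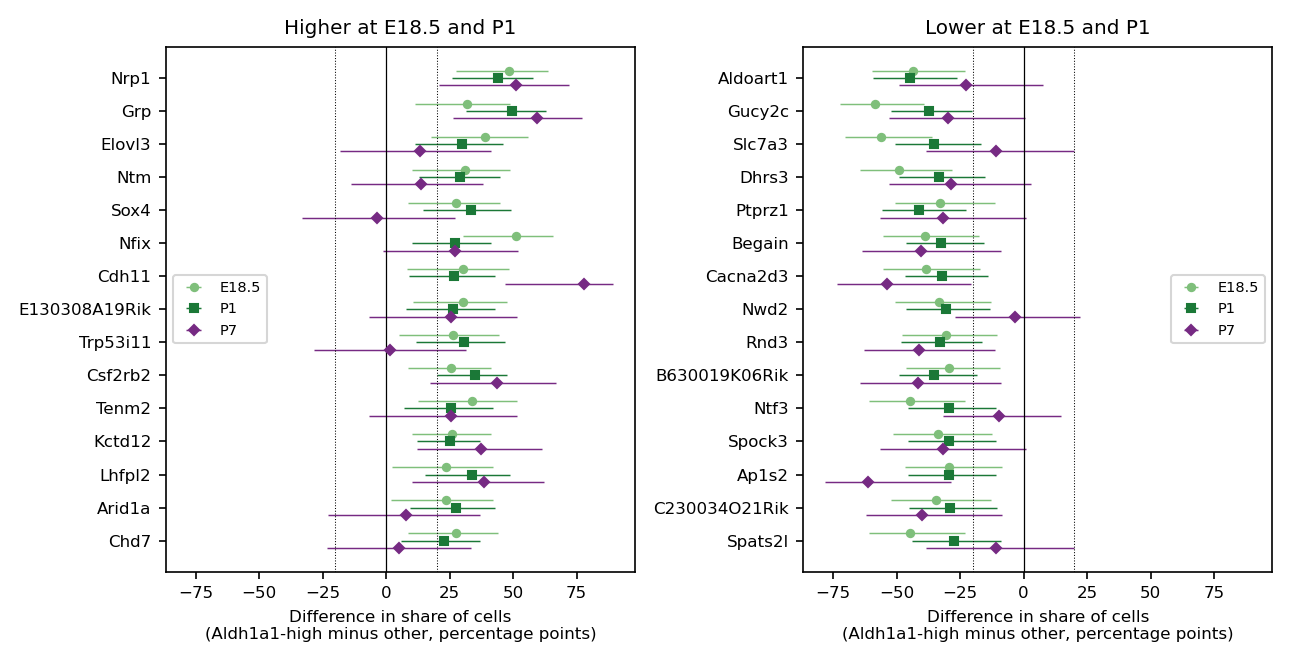
Difference in the share of cells over an RPKM of 10 (x axis, percentage points, Aldh1a1-high minus other Slc6a3-high cells) at E18.5, P1 and P7 for the 30 named entries, with 95% Newcombe bars and dotted lines at -20 and 20. E18.5 and P1 chose the entries, and at P7 Cdh11 reached 77.96 points while Sox4 lay at -3.62.

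The comparison group was itself mixed. Of the other Slc6a3-high cells, 22 had Vip, a peptide gene of a small dopamine subtype, over 150, and 81 had neither Aldh1a1 nor Vip over 150, while no Aldh1a1-high cell was over 150 for Vip. At the 3 stages 5, 7 and 10 cells were Vip-high, so at P7 they were 10 of the 19. Some genes had like shares in both kinds of cell, such as Nrp1, at 13.6% of Vip-high cells and 16.05% of the remaining 81, and Nfix, at 9.09% and 14.8%. For others the 2 kinds differed from each other. Chrna6 was in 0% of Vip-high cells (0 of 22) and 79.01% of the 81, Cdh11 in 0% (0 of 22) and 49.4%, and Id4 in 81.8% and 25.9%. Lypd1 was in 0 of 22 and 37.04%, and Ntf3 in 0 of 22 and 67.9%. Without the Vip-high cells the P7 difference of Epha5 was 9.72 points, against 40.1 with them. For Ntf3 it was -27.1 points, against -9.54 with them. The exact interval of 0 of 22 cells reaches 15.4%.

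Some genes with higher shares in Aldh1a1-high than in other Slc6a3-high cells were as frequent or more so in the cells with high Aldh1a1 and low Slc6a3. Nrp1 was over 10 in 64.9% of those, Nfix in 88.3%, Nfib in 81.1% and Otx2 in 72.97%. Grp (13.5%), Chrna6 (44.1%) and Elovl3 (24.3%) were less frequent there. The shares pool the stages in unlike proportions, and the differences by stage were 19.05, 49.6 and 73.1 points for Grp, 14.3, 30.6 and 80.5 for Chrna6 and 50, 38.8 and 33.02 for Elovl3 at E18.5, P1 and P7. These cells were 21, 37 and 53 at E18.5, P1 and P7, and they included cells with RNA of glia, since the astrocyte genes Aqp4 and Gfap were over 10 in 41.4% and 37.8% of them, against 2.42% and 0.806% of the cells with both. Nfix was less frequent in the cells over both limits at E18.5 and P1, with differences of -30.95 and -33.3 points, as was Otx2, with -47.6 and -30.6 points, and at P1 the shares of glial genes differed as well. The 6 astrocyte genes differed by -4.76 to 0 points at E18.5 and by -15.6 to -1.19 at P1, and the 12 oligodendrocyte-lineage genes by -9.52 to 26.2 and by -19.1 (Olig1) to 8.35. At P7 the 6 astrocyte genes differed by -83.02 (Slc1a3) to -32.1 (S100b), Olig1 by -68.04 and Th by 84.9 points. The large P7 differences of Grp and Chrna6 are thus against cells many of which had RNA of glia. Over the 3 stages 39.6% of the Slc6a3-low cells had at least 6 of the 8 dopamine neuron markers. The part of glial RNA in the Grp, Chrna6, Nfix and Otx2 differences was not tested.

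The Aldh1a1-high cells were not uniform in ventral tegmental genes. Of Grp, Neurod6, Otx2 and Lpl, 23 of the Aldh1a1-high cells had none over 10, 33 had 1, 34 had 2, 20 had 3 and 14 had all 4. In the other Slc6a3-high cells the numbers were 62, 29, 10, 2 and 0, but the 4 genes were chosen with their higher shares in Aldh1a1-high cells known, so the contrast between the groups comes with the choice. Neurod6 lay mostly within the Grp and the Otx2 cells, since 29 of the 34 Neurod6 cells had Grp and 29 had Otx2, whereas Otx2 was found in 45.6% of cells with Grp and 37.8% of cells without it. Neurod6 was over 10 in 36.7% of cells with Grp and in 11.1% of cells without it. All of these numbers share the depth of each cell.

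**Figure D5:**
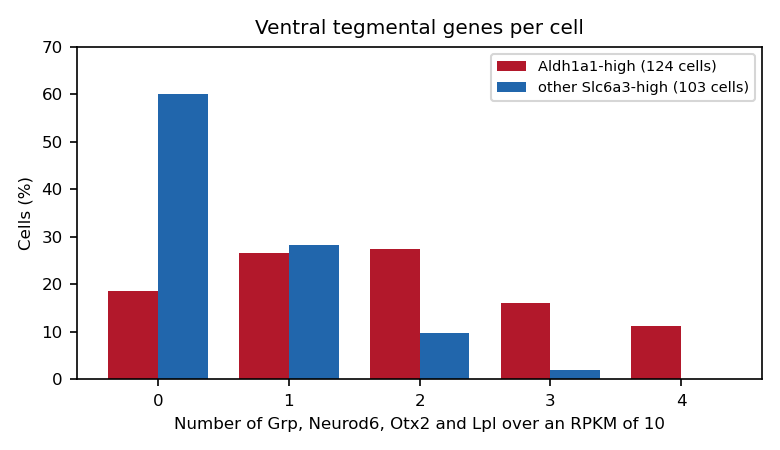
Number of the genes Grp, Neurod6, Otx2 and Lpl over an RPKM of 10 in a cell (x axis) and the percent of cells with that number (y axis), for Aldh1a1-high cells (red) and other Slc6a3-high cells (blue). The red cells are spread over all 5 numbers, with none in 18.5% and all 4 in 11.3%. The 4 genes were chosen for their higher shares in red cells, which sets the contrast with the blue ones.

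The genes whose levels followed Neurod6 most closely among the Aldh1a1-high cells, by Spearman correlation of log2(RPKM + 1) within each stage averaged over the 3 stages among 8190 entries, were Otx2 (0.539), Gpr83 (0.537), Cbln4 (0.5), Mc3r (0.480), Amotl1 (0.442), Bcs1l (0.439), Gfra1 (0.436), Kifc3 (0.436), mt-Tn (0.423) and Rab9 (0.413). The first 4 were at or above 0.397 at each stage, whereas Rab9 was -0.0881 at E18.5. Those that followed Grp were Casr (0.437), Tmem91 (0.432), Amotl1 (0.398), Gfra1 (0.395), 1700001L19Rik (0.390), Adra1b (0.389), Prmt3 (0.383), Phf24 (0.383), Rps6kb1 (0.381) and Rab15 (0.380). Several of these means lean on P7, where 1700001L19Rik reached 0.802 against 0.0745 at E18.5, Phf24 0.779 against 0.122 at E18.5 and Prmt3 0.752 against 0.101 at P1. Amotl1 and Gfra1 were on both lists. Cbln4, which encodes a synapse-organising cerebellin, was also among the entries higher in Aldh1a1-high cells, at 80.6% against 52.4%, as was Amotl1, at 50% against 28.2%. With 16 cells at P7 these correlations rest on few points there.

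Among the Aldh1a1-high cells, Gpr83 was over 10 in 48.1% of the 79 cells with Grp and 20% of the 45 without it, and Lpl in 50.6% and 24.4%. Bdnf was the other way, at 13.9% and 37.8%, as was Lmx1a, at 45.6% and 66.7%. For Lpl the difference was 41.4, 6.83 and 50 points at E18.5, P1 and P7, and for Lmx1a -36.8, -11.1 and 16.7. These genes were picked from the lists with their values known.

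Between E18.5 and P7, 4 of the 13 maturation genes (Sox4, Cd24a, Snap25 and Syt1) were found in a smaller share of Aldh1a1-high cells with an interval that left out 0, and the other 9 had intervals that included it. Over all 8862 entries 13.1% had such an interval below 0 and 0.745% above it, and the median difference was -9.23 points. Stmn2 and Tubb3, genes of young neurons as well, were at 100% at each stage. Sox4 was over 10 in 88.1%, 68.2% and 43.8% of cells at E18.5, P1 and P7, a difference between P7 and E18.5 of -44.4 points (-66.1 to -17.8), and Cd24a, a surface protein of young neurons, in 100%, 87.9% and 68.8%, with means of 600.2, 307.9 and 306.8 RPKM. Ephb2, an ephrin receptor, was at 54.8%, 37.9% and 6.25%. In the other direction, Cacna1g, a T-type calcium channel, was at 11.9%, 21.2% and 50%, the GDNF-family co-receptor gene Gfra4 at 38.1%, 54.5% and 68.8%, and Cdh11 at 64.3%, 78.8% and 93.8%. Snap25 and Syt1, genes of synaptic vesicle release that rise in maturing neurons, were at 97.6% and 97.6% at E18.5 and 75% and 75% at P7. The Aldh1a1-high cells had a median of 7264 entries detected at E18.5 and 7378 at P1, against 6505 at P7, and its part in these differences was not tested.

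The same 2 limits were applied to the other heterozygous stages and to the homozygotes. At E13.5 none of 25 heterozygous Slc6a3-high cells was over the Aldh1a1 limit, which allows a share of up to 13.7% by the exact interval, and the homozygotes of that stage held 1 Slc6a3-high cell, which was not over it either. At E15.5, 15 of 38 Slc6a3-high cells met both limits (39.5%, 24.04 to 56.6) and at P90 35 of 71 (49.3%, 37.2 to 61.4). In cells over both limits Grp was found in 33.3% at E15.5 and 65.7% at P90, Neurod6 in 20% and 54.3%, and Lpl in none of 15 and in 68.6%. At P90 the corresponding shares in the other Slc6a3-high cells were 25% for Grp, 5.56% for Neurod6 and 5.56% for Lpl. Of the homozygous P1 cells, 5 met both limits (2.67%, 0.874 to 6.13), against 66 of the heterozygous P1 cells, with 32.98% in the title set P1_1 and 15.6% in the set P1. In the 2 homozygous sets the shares were 3.23% (0.670 to 9.14) and 2.13% (0.259 to 7.47). These shares are of all cells over the limit on reads, of any cell type. Pitx3 reads were still counted in the 5 homozygous cells, all of them over 10 with a mean of 18.3 RPKM, against 2 of 11 other homozygous Slc6a3-high cells and a mean of 185.8 in the 66 heterozygous ones. Of these 5 cells 1 had Grp, 0 had Neurod6 and 4 had Otx2.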

How the data were processed

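Single cells were sequenced with Smart-seq2. Per the labels and the study's methods, the authors aligned reads with STAR to mm10, to which eGFP and the spike-ins had been added, discarded reads that mapped to several places, and deposited for each cell a read count and an RPKM per gene of Ensembl release 69, made with rpkmforgenes. The RPKM values were used as deposited, and the counts gave the depth of each cell and the thinned values. Of 702 heterozygous cells of E18.5, P1 and P7, 7 had 100000 reads or fewer and were left out. The remaining 695 held 227 cells with Slc6a3 over 150, of which 124 were over 150 for Aldh1a1 and 103 were not, and 111 cells with high Aldh1a1 and low Slc6a3. The members, limits and gene lists were chosen with earlier results of these data known.

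A gene was called detected over an RPKM of 10, and 8862 entries detected in at least 20% of either group were compared. An entry could thus be compared through 1 group only, the one where it was more frequent, in the lists and over all entries alike. Since 1 stage is 1 sample, entries were called by size (at least 20 points, same direction at E18.5 and P1), and no p-value was computed. The genes named are those of the fixed lists, the 15 entries in each direction ranked by the smaller of the E18.5 and P1 differences (P7 was not used, and Aldh1a1 and Slc6a3 were left out), and the 10 that followed Grp and the 10 that followed Neurod6 most closely by Spearman correlation. The counting was run on simulated data with planted changes much larger than 20 points, in entries detected in an intermediate share of cells. That run does not cover changes near the limit, sparse entries or differences between title sets. Besides the lists described in the report, neuropeptides had 1 higher gene (Grp) and 0 lower of 9 compared, excitability genes 0 and 1 (Cacna2d3) of 12, genes of other transmitters 0 and 0 of 2, maturation genes 1 (Sox4) and 0 of 12, and activity and stress genes 0 and 0 of 3, where 0.293% of all entries were higher and 0.846% lower. Python 3.11.15, NumPy 2.4.6, SciPy 1.17.1, pandas 2.3.3 and Matplotlib 3.10.9 were used, with GENCODE M21 for coordinates on GRCm38, the build that mm10 denotes. Intervals and limits cover counting error only.

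After seeing the data, cells with at least 3 genes of any other cell type list were left out as a further alternative, which left 25 entries higher and 108 lower. Calls were also repeated without each title set of E18.5 and P1, which gave 30 to 39 entries higher and 88 to 170 lower. Some genes of the lists are not reported here.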

Additional observations from a re-analysis of the deposited data

Results flagged for a closer look

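Cells over both limits were also present in groups outside the comparison above, each compared with the E13.5 heterozygotes, where none of 25 Slc6a3-high cells met both. They made up 39.5% of Slc6a3-high cells in E15.5 heterozygotes (15 of 38, 24.04 to 56.6), 49.3% in P90 heterozygotes (35 of 71, 37.2 to 61.4) and 31.25% in P1 homozygotes (5 of 16, 11.02 to 58.7). The intervals of these 3 shares overlap, and the smallest of the groups rests on 5 cells. P1 homozygotes differ from E13.5 heterozygotes in both genotype and age, so that comparison cannot separate them. In P1 heterozygotes, of the same age, the share was 58.9% (49.2 to 68.1). Of all cells over the limit on reads, 2.67% (0.874 to 6.13) of P1 homozygotes and 20.7% (16.4 to 25.55) of P1 heterozygotes met both limits. The overlap above therefore does not show that homozygotes are like heterozygotes. With 1 sample in each group, no difference between them was tested.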

How the results depend on the processing

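The share of Slc6a3-high cells over the Aldh1a1 limit stayed between 50.4% and 56.3% when 1 stage or 1 title set was left out, and between 52.8% and 55.4% under the other settings tried, which were limits of 100 or 300 RPKM, a floor on detected entries, leaving out cells with oligodendrocyte genes, and thinning to 100000 reads. The number of entries higher by 20 points was 26. It ran from 30 to 39 when 1 title set was left out and from 24 to 36 over the other settings tried. The number lower was 75 and fell to 31 when an RPKM over 50 was required for detection and to 47 with both limits at 100. It rose to between 88 and 170 when 1 title set was left out, and the cause of these shifts was not tested. Of the entries called after thinning, 22 of 33 higher and 38 of 61 lower ones were shared with the calls reported. A reversal of sign was counted for called genes only, and 0 of these reversed under the settings on cells and detection. Genes without a call could change sign, as Slc17a6 did, with a difference of 0.498 points without the title set P1. Among the differences in share of all 73 named genes, 25 moved when detection required over 50, 12 when it required over 1 and 10 without Vip-high cells. With limits of 300, 5 moved, 4 did without P1, 1 without E18.5 and 1 (Aldoart1) on thinning. Calb1, at 83.1% against 74.8% of cells, had the opposite sign on the scale of mean levels, with 162.8 against 298.6 RPKM. Pairing by animal was not possible because the labels name no animal, and the 2 groups were instead compared within stages and within title sets. Shares near 0 or 100%, and values at P7 with its 16 and 19 cells, are those that the number of cells limits most.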

Other observations

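The cells over both limits in the E15.5 and P90 heterozygotes carried some of the genes described for the perinatal cells and not others. At E15.5, Otx2 was over 10 in 33.3% of them and 39.1% of the other Slc6a3-high cells, and Nfix in 26.7% against 43.5%, so neither was more frequent in them, while Grp was at 33.3% against 4.35%. At P90, Otx2 was at 60% against 11.1% and Nfix at 14.3% against 0 of 36 cells. These groups hold 15 and 23 cells at E15.5 and 35 and 36 at P90, and no test was made.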
